A study of Homo sapiens with 6 samples.

Results

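Expression was described for 28 genes of cholesterol synthesis and its control by SREBP2, out of 43424 gene symbols counted in HepG2, an established hepatocellular carcinoma line with many hepatocyte functions. The genes were taken from a list of symbols and matched exactly in the count tables, and all 28 were found. They comprise 18 enzymes of the pathway, 4 genes of SREBP2 and its sterol control, and 6 genes of sterol uptake, transport and esterification. The cells were wild type per the labels. In the tamarixetin group, 3 samples received 10 µM tamarixetin, an O-methylated relative of quercetin, for 24 h in medium with 1% serum, after growth in 10% serum. The control group comprised 3 samples with no treatment. Neither a vehicle nor the serum of the control cultures over those hours is given in the sources used here, so the compound and any difference in medium cannot be told apart.

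Cells build cholesterol from acetyl-CoA. The first enzymes make mevalonate and join its activated isoprene units into farnesyl diphosphate, and the later ones make squalene, close its rings to lanosterol and trim lanosterol to cholesterol in the endoplasmic reticulum. The pathway is set at the level of transcription by SREBP2, a membrane-bound factor encoded by SREBF2. When the membrane is low in sterol, SCAP escorts SREBP2 to the Golgi, where it is cut and released to the nucleus, and when sterol is plentiful the INSIG proteins hold SCAP and SREBP2 back. SREBP2 binds sterol response elements in promoters, as a rule next to sites for NF-Y and Sp1. Hepatocytes make cholesterol and export it in lipoproteins and bile.

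Most of the enzymes fell together with tamarixetin, so a piece of the promoter is shown for HMGCS1, MVD, IDI1 and TM7SF2, which were among the largest falls, for SREBF2, which did not pass the test, and for NPC1, which rose. Each is 120 bases long, 5′ to 3′, from RefSeq on GRCh38.p14. Capitals mark the NF-Y box CCAAT, or its reverse complement ATTGG, and the sterol response element searched as CACNCCAC, which lies on the reverse strand in IDI1; in SREBF2 the longer form TCACNCCAC is in capitals. The IDI1 and HMGCS1 pieces come from 1 of several RefSeq starts of these genes. At the other HMGCS1 start and at another IDI1 start neither motif was found. The sterol response element of IDI1 was found only at the start shown.
HMGCS1 (chr5:43313478-43313597, minus strand, first base 185 bases before the start): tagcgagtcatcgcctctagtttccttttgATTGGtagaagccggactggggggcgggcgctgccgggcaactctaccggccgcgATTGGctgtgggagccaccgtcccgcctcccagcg
MVD (chr16:88663161-88663280, minus strand, first base 189 bases before the start): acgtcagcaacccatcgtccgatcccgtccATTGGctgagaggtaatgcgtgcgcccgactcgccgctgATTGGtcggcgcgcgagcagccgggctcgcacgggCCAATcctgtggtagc
IDI1 (chr10:1048929-1049048, minus strand, first base 162 bases before the start): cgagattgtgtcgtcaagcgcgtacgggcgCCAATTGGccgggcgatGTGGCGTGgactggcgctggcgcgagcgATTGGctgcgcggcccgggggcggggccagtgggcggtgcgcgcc
TM7SF2 (chr11:65111768-65111887, plus strand, first base 104 bases before the start): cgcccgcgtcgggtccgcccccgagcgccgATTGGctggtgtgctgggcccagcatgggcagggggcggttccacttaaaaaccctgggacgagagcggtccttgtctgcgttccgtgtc
SREBF2 (chr22:41832942-41833061, plus strand, first base 163 bases before the start): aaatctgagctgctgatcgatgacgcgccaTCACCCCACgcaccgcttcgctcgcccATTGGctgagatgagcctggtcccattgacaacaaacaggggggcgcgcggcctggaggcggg
NPC1 (chr18:23586507-23586626, minus strand, first base 120 bases before the start): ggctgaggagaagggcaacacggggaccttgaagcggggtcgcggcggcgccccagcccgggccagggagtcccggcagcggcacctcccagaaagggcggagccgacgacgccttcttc

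Windows of 300 bases (250 before the start and 50 after it) were found in RefSeq for 25 of the 28 genes, 31 windows in all, with several starts for 5 genes. ACAT2, FDFT1 and SQLE had no entry. The NF-Y box CCAAT, searched on both strands, was in 22 of the 31 windows (71.0%), against 34.6% of the 35116 windows of all genes in that table. The Sp1 box GGGCGG was in 28 windows (90.3%), against 45.0% of all windows. The windows of all genes were not matched to those of the members for expression in these cells or for base composition. The sterol response element in its short form CACNCCAC was in 5 windows (16.1%), of IDI1, SC5D, SREBF2 and INSIG1, against 5.87% of all windows. The SC5D windows overlap and hold the same element, which was thus counted in both, as was their NF-Y box. The longer TCACNCCAC, which contains the short form, was in SREBF2 alone, against 1.13% of all windows. In SREBF2 the longer form began 133 bases before the start, with an NF-Y box beginning 106 bases before the start. In IDI1 a pair of overlapping NF-Y boxes on opposite strands preceded the element. PMVK, CYP51A1, SCAP, INSIG2 and NPC1 had no NF-Y box in any window. Of these, PMVK and CYP51A1 fell and NPC1 rose, while FDPS and DHCR7, which have NF-Y boxes, did not pass the test, so genes with and without the box were found both among those that passed and those that did not. A match describes the letters in the window and shows no binding. A window without a match lacks only the exact letters searched, so a site with other letters or outside the window would be missed.

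**Figure D1:**
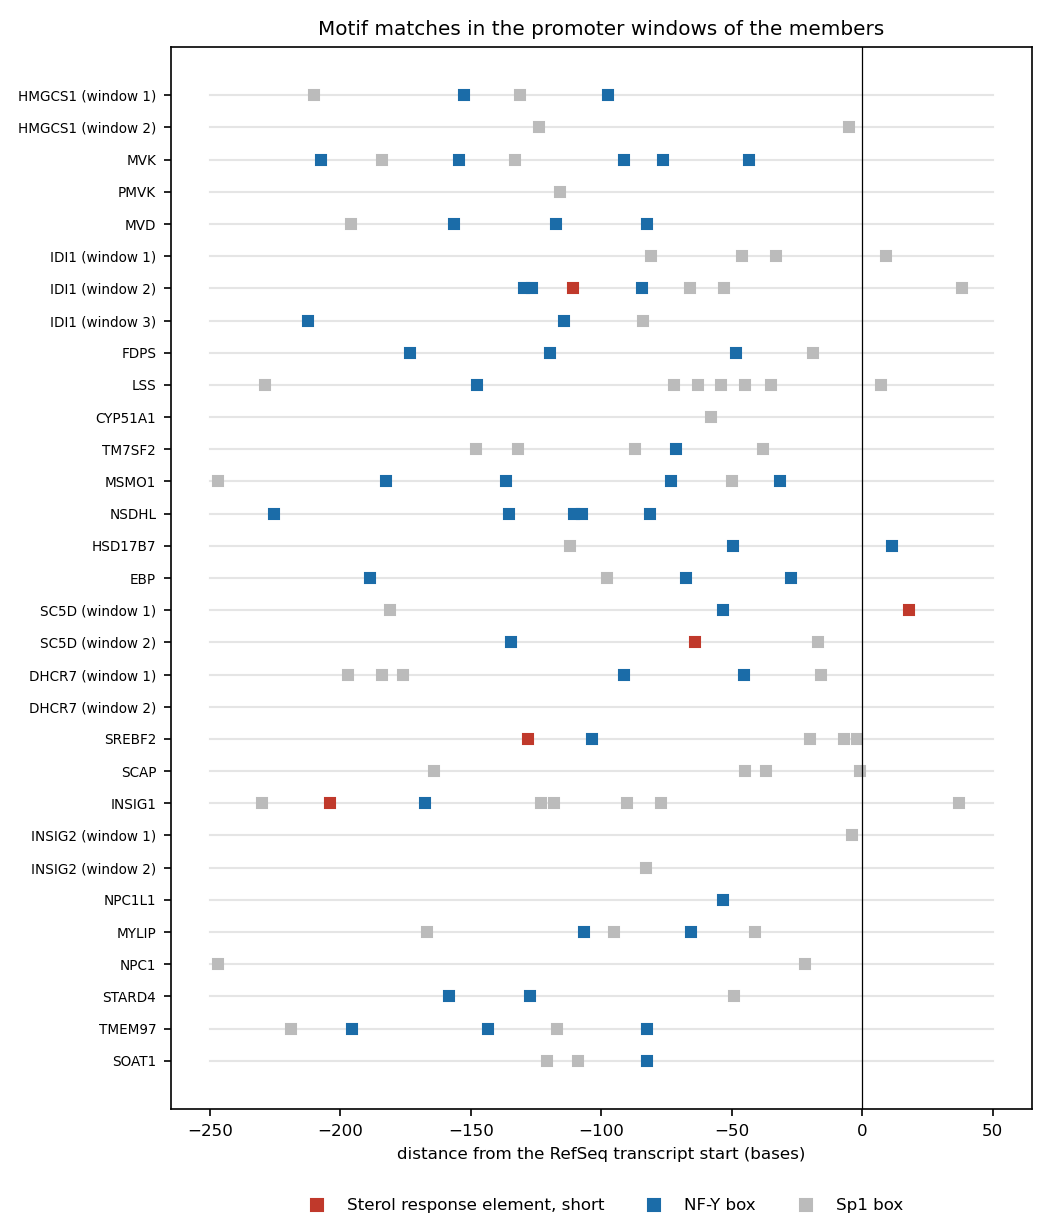
Matches of 3 motifs in the promoter windows of the members, plotted by distance in bases from the RefSeq transcript start (0, vertical line), in 1 row per window. NF-Y boxes (blue) are in 22 of 31 windows and the short sterol response element (red) in 5; grey marks Sp1 boxes.

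The values are raw counts per gene from libraries that read the 3′ end of mRNA, with 11980585 to 15454815 counts in the tamarixetin libraries and 12131365 to 16168855 in the control libraries. They are given as CPM, counts scaled to a common library size after TMM adjustment, and log2 fold changes are tamarixetin over control, with a standard error (SE). A gene passed the test at an adjusted p under 0.05, with edgeR's quasi-likelihood test and Benjamini-Hochberg adjustment over 13198 genes; adjusted p-values below are from that test unless another tool or setting is named. Since these are bulk counts, fewer cells of a type and less RNA per cell cannot be told apart. The cells expressed hepatocyte genes: 13 of 14 markers were tested and summed to 13583 to 13758 CPM in tamarixetin and 20138 to 20674 CPM in control libraries, with 10 lower (albumin, ALB, by 0.83 on the log2 scale) and 2 higher. Markers of other liver cells summed to 299 to 307 CPM with tamarixetin and 332 to 351 CPM in controls, mostly SOX9, a gene also active in liver progenitors; 7 of these 14 were too low to test, and STAB2, LRAT and CFTR had 0 counts in every library. The share of counts from the mitochondrial genome was 7.98% to 8.53% with tamarixetin and 10.26% to 11.04% in controls; with those transcripts left out, 19 of the 28 genes still fell. The part of the hepatocyte decline in the results below was not tested. The labels call the samples biological replicates without naming separate cultures or days, so p-values measure the spread between these samples.

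The mRNA of cholesterol synthesis enzymes was lower at nearly every step with tamarixetin. Sterol levels and synthesis itself were not measured. Of the 28 genes, 27 had enough counts to be tested, and 19 of these fell, 1 rose and 7 did not pass; over all genes tested, 21.3% were called lower and 22.4% higher, 43.7% in either direction. Of the 18 enzymes 16 fell and none rose, with a median log2 fold change of -0.48. Of the other 10 genes, 9 were tested, 3 fell and 1 rose, with a median of -0.11. When the test asked for a change beyond a fold of 1.2, 10 enzymes and 3 of the other genes were lower. The median over all genes tested was 0.0004. The 18 enzymes summed to 1791 to 1819 CPM in the tamarixetin libraries and to 2424 to 2503 CPM in the control libraries. In 19 of the 27 genes tested, all 3 tamarixetin libraries lay below the 3 controls, and in 1 they lay above. Over all genes tested, this was so for 24.5% in the lower and 26.0% in the higher direction. The genes that separated were the 20 called, and the calls and the separation rest on the same libraries.

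**Figure D2:**
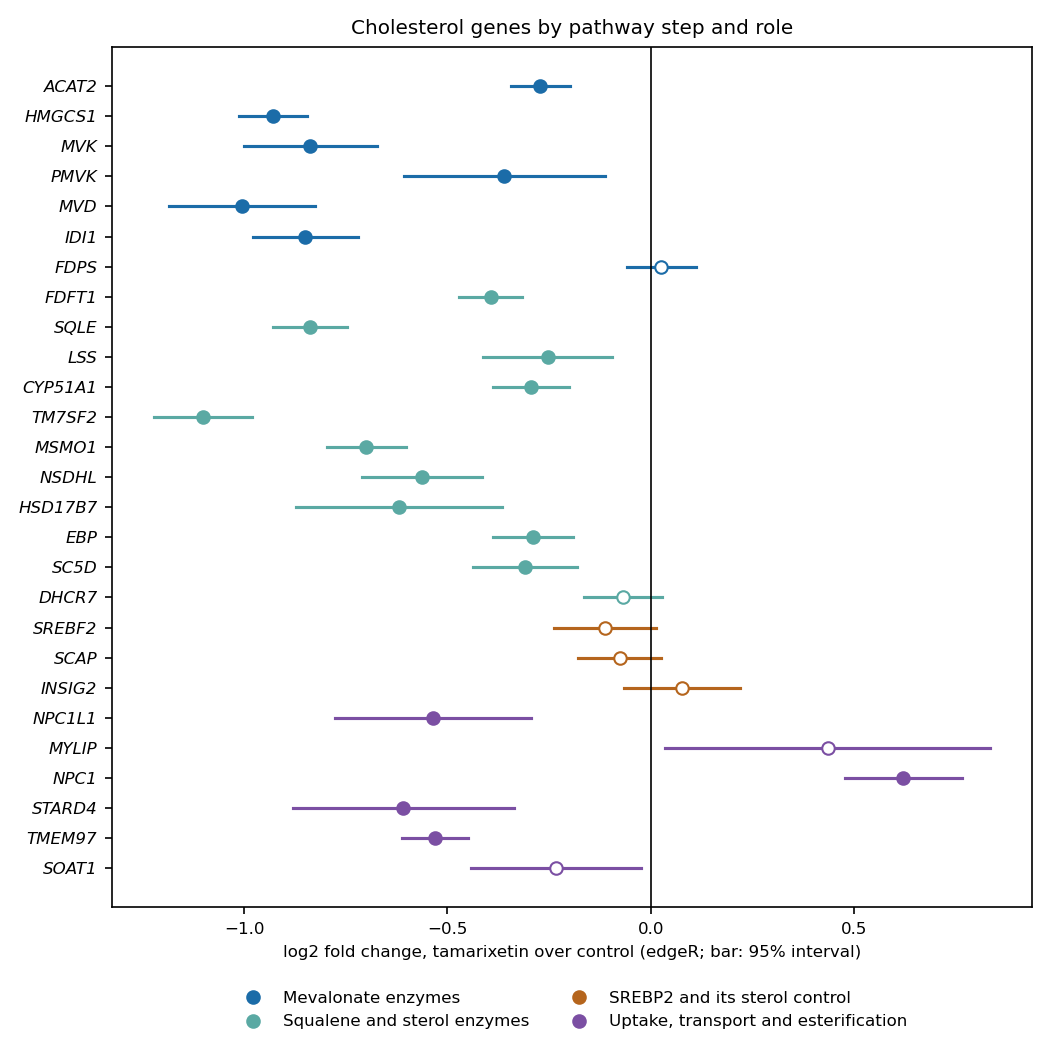
Log2 fold change (tamarixetin over control) of the 27 members tested, from the first enzyme at the top through sterol control to uptake and transport, with bars for the 95% interval of each gene, not adjusted for the number of genes. Filled points passed the test and open ones did not: TM7SF2 lies lowest at -1.10 and NPC1 highest at 0.62.

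In the mevalonate steps 6 of 7 enzymes fell, with a median of -0.84. ACAT2, the cytosolic thiolase that joins acetyl-CoA units, had 348, 367 and 349 CPM with tamarixetin and 421, 435 and 428 CPM in controls, and it fell by 0.27 on the log2 scale (SE 0.036, adjusted p = 4.00e-10, edgeR). HMGCS1, which adds the third acetyl unit on the way to mevalonate (chromosome 5, 43287470 to 43313412, GRCh38.p14), had 155, 153 and 149 CPM with tamarixetin and 275, 300 and 296 CPM in controls. Its tamarixetin values lay close together and far under every control, and it fell by 47.5% (log2 fold change -0.93, SE 0.042, adjusted p = 3.53e-37, edgeR), with the smallest p of the 28 genes.

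The kinases and the decarboxylase that follow differed in size of change. MVK, the mevalonate kinase, had 30.4, 24.1 and 24.9 CPM with tamarixetin and 49.6, 45.9 and 47.0 CPM in controls (log2 fold change -0.84, SE 0.082). PMVK, the phosphomevalonate kinase, had 11.5, 12.95 and 10.97 CPM with tamarixetin and 15.3, 14.8 and 15.4 CPM in controls, a fall of 0.36 on the log2 scale (SE 0.125, adjusted p = 0.0134, edgeR). That is the call of an enzyme nearest the threshold, and it was lost with DESeq2 (adjusted p = 0.0553) and without tamarixetin replicate 3 (0.0625, edgeR). MVD, the decarboxylase that yields isopentenyl diphosphate (chromosome 16, 88651940 to 88663091), had 17.3, 20.7 and 21.1 CPM with tamarixetin and 42.2, 38.2 and 37.7 CPM in controls. It fell by 50.2% (log2 fold change -1.01, SE 0.090), the largest fall of these steps.

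IDI1, the isomerase that makes the second isoprene building block, had 43.6, 42.8 and 49.98 CPM with tamarixetin and 77.3, 83.8 and 84.0 CPM in controls, with a log2 fold change of -0.85 (SE 0.065). FDPS, the next enzyme, which makes farnesyl diphosphate, had 193, 210 and 205 CPM with tamarixetin and 202, 202 and 192 CPM in controls. The groups of FDPS overlapped, and its log2 fold change of 0.03 (SE 0.043, adjusted p = 0.661, edgeR) had a 95% interval of -0.06 to 0.11. The interval of IDI1, at -0.98 to -0.72, lay wholly under that of FDPS, so neighbouring steps differed beyond their error.

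**Figure D3:**
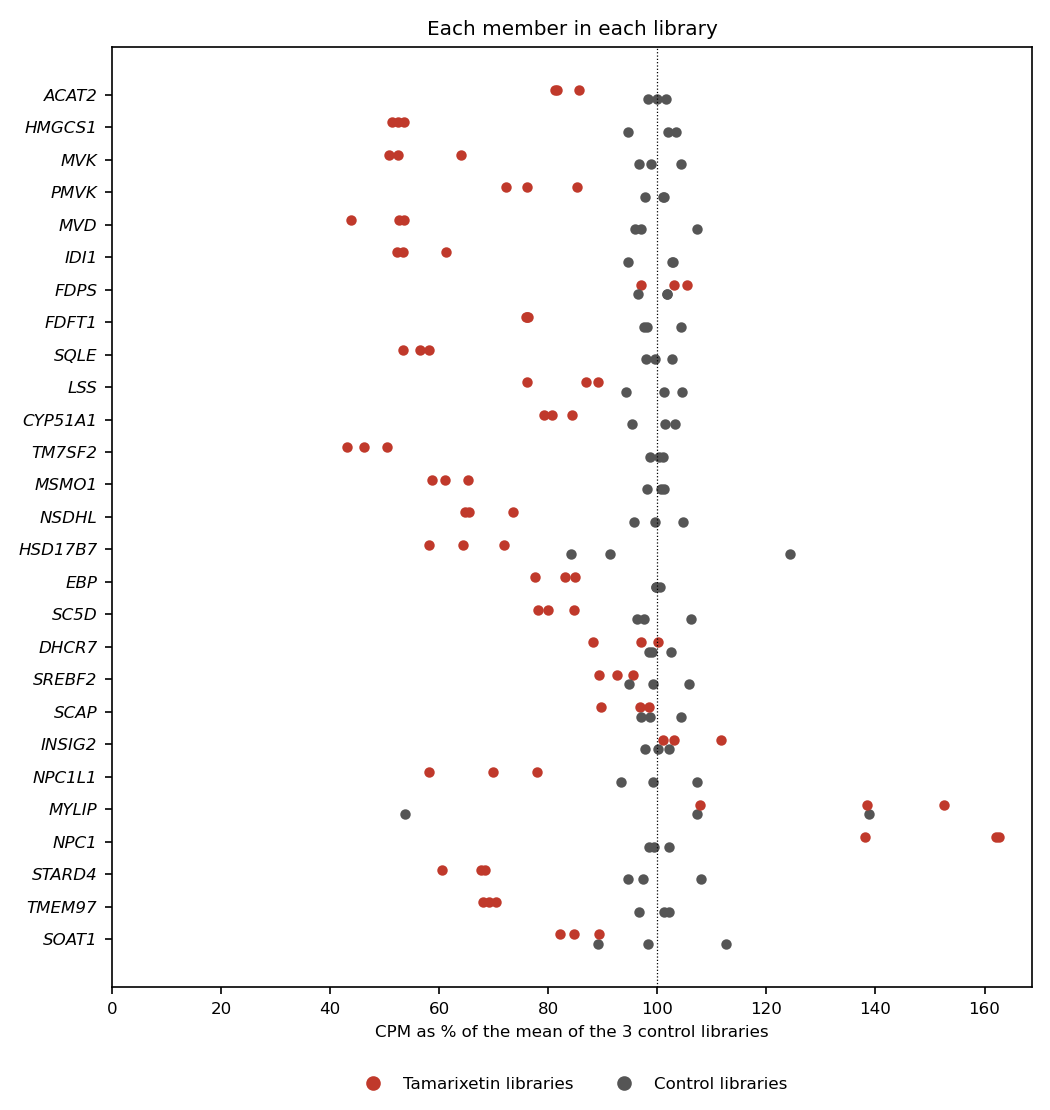
CPM of each tested member in each library, as a percentage of the mean of the 3 control libraries (dotted line at 100%), with tamarixetin libraries in red and control libraries in grey. For HMGCS1 and TM7SF2 the tamarixetin points lie far left of the controls, for FDPS and INSIG2 the points mingle, and for NPC1 they lie to the right.

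From squalene to cholesterol 10 of 11 enzymes fell, with a median of -0.39. FDFT1, the squalene synthase, had 240, 239 and 240 CPM with tamarixetin and 307, 309 and 328 CPM in controls (log2 fold change -0.39, SE 0.039). SQLE, the squalene epoxidase and a flux-controlling step, had 114, 108 and 118 CPM with tamarixetin and 198, 202 and 208 CPM in controls, a fall of 44.0% (SE 0.046 on the log2 scale, adjusted p = 4.60e-31, edgeR). SQLE thus fell by more than its neighbours: the 95% interval of its log2 fold change ran from -0.93 to -0.75, against -0.47 to -0.32 for FDFT1 and -0.41 to -0.09 for LSS. LSS, which closes the rings to lanosterol, averaged 33.9 ± 2.79 CPM with tamarixetin and 40.3 ± 2.12 CPM in controls (SD, n = 3 each; adjusted p = 0.00637, edgeR), and its call was lost without tamarixetin replicate 1 (adjusted p = 0.0981, edgeR).

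The enzymes that trim lanosterol fell to different extents. CYP51A1, the lanosterol demethylase, averaged 128 ± 4.13 CPM with tamarixetin and 157 ± 6.45 CPM in controls (log2 fold change -0.29). TM7SF2, a sterol reductase that acts after it (chromosome 11, 65111872 to 65116230), had 45.9, 50.01 and 42.7 CPM with tamarixetin and 100.3, 99.6 and 98.1 CPM in controls. This was the largest fall of all 28 genes, at 53.4% (log2 fold change -1.10, SE 0.061, adjusted p = 1.11e-30, edgeR). The C4 demethylation genes fell by similar amounts, with overlapping intervals: MSMO1, the methyl oxidase, by 0.70 (SE 0.049), NSDHL, the decarboxylating dehydrogenase, by 0.56 (SE 0.074), and HSD17B7, the keto reductase, by 0.62 (SE 0.128) on the log2 scale. HSD17B7 had 470 counts in the tamarixetin and 732 in the control libraries together, and a near copy, HSD17B7P2, held 100 and 147, so reads may be split between them.

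Changes at the last steps were small. EBP, the isomerase that moves the ring double bond, averaged 107 ± 4.99 CPM with tamarixetin and 131 ± 0.575 CPM in controls (log2 fold change -0.29), and SC5D, the desaturase, 52.8 ± 2.27 CPM with tamarixetin and 65.3 ± 3.48 CPM in controls (-0.31; SD, n = 3 each). DHCR7, the reductase that ends one branch of the pathway, had 137, 132 and 120 CPM with tamarixetin and 134, 140 and 135 CPM in controls. It did not pass (log2 fold change -0.07, 95% interval -0.16 to 0.03, adjusted p = 0.253, edgeR), and its interval lay above those of EBP, at -0.39 to -0.19, and SC5D, at -0.44 to -0.18.

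Of the genes of the sterol switch itself 3 could be tested, and none passed. SREBF2 had 60.9, 57.0 and 59.1 CPM with tamarixetin and 60.5, 63.3 and 67.5 CPM in controls (log2 fold change -0.11, 95% interval -0.24 to 0.01, adjusted p = 0.149, edgeR). SCAP, the escort protein, had 105, 97.3 and 107 CPM with tamarixetin and 107, 105 and 113 CPM in controls (-0.08, interval -0.18 to 0.03). INSIG2, a retention protein, had 50.4, 46.5 and 45.6 CPM with tamarixetin and 46.1, 45.2 and 44.1 CPM in controls (0.08, interval -0.07 to 0.22). The groups overlapped in all 3 genes. These are mRNA levels and hold nothing on the cleavage of SREBP2.

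INSIG1, the other retention gene and a known SREBP2 target, could not be tested. It had 8, 3 and 10 counts in the tamarixetin libraries and 3, 6 and 10 in the controls. On GRCh38.p14 the last 43 bases of INSIG1 (chromosome 7, end at 155310235) are shared with LOC105375592, a noncoding gene on the other strand with 0 counts in every library. If counting ignored strand, reads over shared bases could stay unassigned; the part of this overlap in the low count was not tested. No level of INSIG1 is read from these values.

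Among the genes of uptake, transport and esterification 3 of 6 fell and 1 rose. TMEM97, a membrane protein that binds NPC1 and is induced when sterol is low, had 198, 195 and 191 CPM with tamarixetin and 288, 285 and 272 CPM in controls (log2 fold change -0.53, SE 0.040, adjusted p = 1.39e-21, edgeR). STARD4, a soluble carrier of sterol between membranes, had 8.27, 9.34 and 9.24 CPM with tamarixetin and 12.9, 14.8 and 13.3 CPM in controls (-0.61, SE 0.137). NPC1L1, which takes up sterol from gut and bile, had 12.4, 13.8 and 10.3 CPM with tamarixetin and 19.01, 17.6 and 16.6 CPM in controls (-0.53, SE 0.122). The groups of all 3 were apart, and their intervals overlapped one another.

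NPC1, which moves cholesterol out of the lysosome (chromosome 18, 23506184 to 23586506), was the 1 gene of the 28 that rose. It had 52.3, 61.4 and 61.7 CPM with tamarixetin and 38.7, 37.7 and 37.4 CPM in controls, a rise of 53.9% (log2 fold change 0.62, SE 0.072, adjusted p = 2.20e-12, edgeR). Its 3′ end overlaps that of RMC1 on the other strand, which averaged 10.6 ± 0.634 CPM with tamarixetin and 7.64 ± 0.818 CPM in controls (SD, n = 3 each; log2 fold change 0.47, adjusted p = 0.00687, edgeR). Without the strand setting of the counting, reads of these 2 genes cannot be told apart over the shared bases.

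The remaining genes of this set did not pass. MYLIP, a ubiquitin ligase that sends lipoprotein receptors for degradation, had 7.82, 7.09 and 5.53 CPM with tamarixetin and 7.12, 5.50 and 2.76 CPM in controls (log2 fold change 0.44, SE 0.202, adjusted p = 0.0716, edgeR). Its groups overlapped, and it had the lowest level of the members tested. It passed as higher without control replicate 1 (adjusted p = 0.00405, edgeR) or tamarixetin replicate 3 (0.0288, edgeR). It also passed as higher in limma-voom (0.0306) and with scaling by library size alone (0.0499, edgeR). Without control replicate 3 its log2 fold change was 0.11 (adjusted p = 0.714, edgeR), and in DESeq2 its adjusted p was 0.294. SOAT1, which esterifies cholesterol for storage, had 17.8, 18.3 and 19.3 CPM with tamarixetin and 19.3, 21.3 and 24.3 CPM in controls (-0.23, SE 0.105, adjusted p = 0.0634, edgeR). It passed as lower without control replicate 1 (adjusted p = 0.0194, edgeR), with upper quartile scaling (0.0305) and with a filter of 5 CPM (0.0486). Without control replicate 3 its log2 fold change was -0.14 (adjusted p = 0.377, edgeR), and in DESeq2 its adjusted p was 0.182.

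Other counted genes overlap the last 500 bases of 7 members in RefSeq. Besides INSIG1 and NPC1 these are ACAT2, IDI1, FDPS, LSS and TMEM97. TCP1, a chaperonin subunit opposite ACAT2, rose to 303 ± 2.08 CPM with tamarixetin, against 241 ± 9.54 CPM in controls (SD, n = 3 each), while ACAT2 fell. IFT20, opposite TMEM97, averaged 17.5 ± 2.07 CPM with tamarixetin and 19.9 ± 1.44 CPM in controls and did not pass. The noncoding neighbours of IDI1, FDPS and LSS averaged under 1 CPM in both groups.

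**Figure D4:**
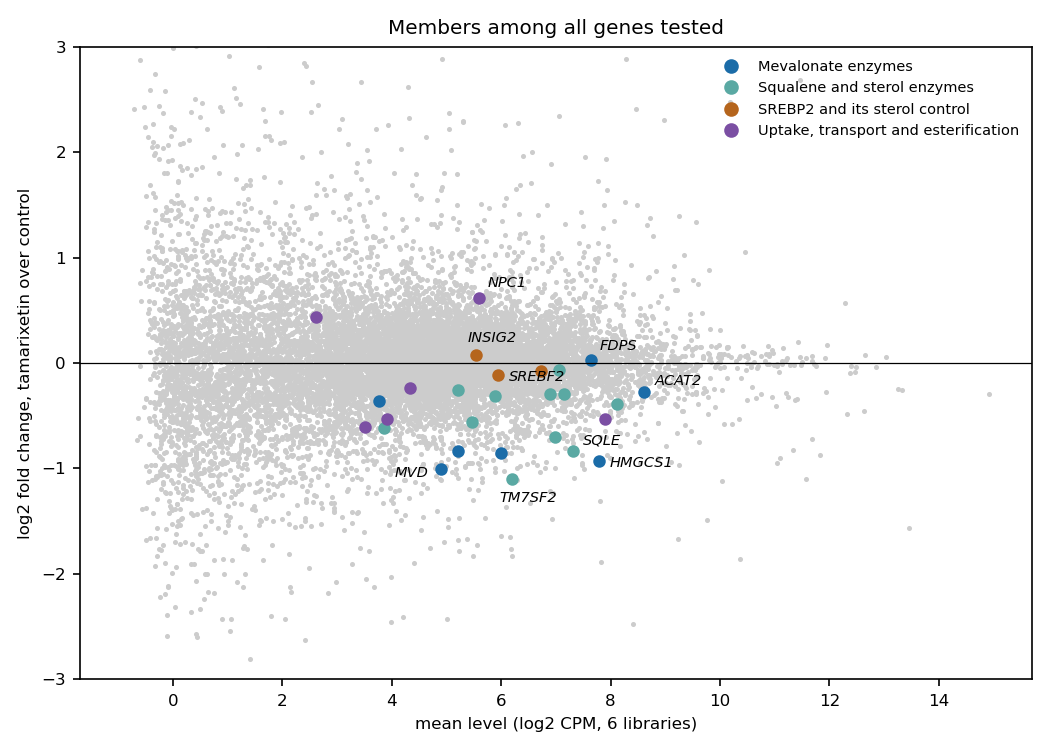
Mean level (log2 CPM over the 6 libraries) against log2 fold change, tamarixetin over control, for the 13198 genes tested (grey) with the members in colour; 39 genes beyond the axis limit of 3 are not drawn. Most enzymes lie under 0 at middle to high levels, FDPS and SREBF2 lie near 0, and NPC1 lies above it.

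Genes around the pathway are set beside the 21.3% lower, 22.4% higher and 43.7% called in either direction over all genes tested. Of 12 genes of SREBP cleavage and sterol-driven degradation, 4 rose and 2 fell, with a median log2 fold change of 0.10. SPRING1, a Golgi protein needed for SREBP cleavage, reached 90.3 ± 1.89 CPM with tamarixetin, against 51.2 ± 0.339 CPM in controls (log2 fold change 0.82, SE 0.060). TRIB1, a pseudokinase and degradation adaptor, rose by 0.81 on the log2 scale (SE 0.065). The proteases that cut SREBP2, MBTPS1 and MBTPS2, did not pass, at -0.02 (SE 0.050) and 0.13 (SE 0.115).

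Helpers of the sterol enzymes were mixed, with 3 of 9 higher, 4 lower and a median of -0.10. CYB5A, an electron donor, and POR, the reductase that serves CYP51A1 and SQLE, rose by 0.32 (SE 0.039) and 0.36 (SE 0.048), whereas ERG28, a scaffold of the C4 demethylation enzymes, fell by 0.40 on the log2 scale (SE 0.062). Of 14 genes of the isoprenoid branches that leave the pathway near FDPS, 4 rose and 1 fell, with a median of -0.01. The prenyltransferase subunit RABGGTB (0.54, SE 0.054), the prelamin protease ZMPSTE24 (0.30, SE 0.079) and the dolichol synthesis gene DHDDS (0.35, SE 0.101) had the smallest p of these. The groups of DHDDS overlapped, with 29.8, 24.9 and 30.4 CPM with tamarixetin and 17.5, 27.1 and 22.7 CPM in controls.

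Most tested genes in the list of LXR (the oxysterol receptor) and efflux genes were also lower. In this list, which also holds MYLIP, 7 of 11 tested fell and none rose, with a median of -0.48. Not all genes of the list encode sterol exporters. ABCA1, which loads cholesterol onto apolipoproteins, averaged 38.0 ± 2.44 CPM with tamarixetin and 65.1 ± 2.49 CPM in controls (SD, n = 3 each; log2 fold change -0.77, SE 0.069). CYP27A1, a sterol hydroxylase, fell by 0.48 (SE 0.042) and PLTP, a phospholipid transfer protein, by 0.59 (SE 0.099) on the log2 scale. The receptor genes NR1H3 (-0.26, SE 0.116) and NR1H2 (0.17, SE 0.158) did not pass.

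Other uptake, transport and storage genes were higher in 5 and lower in 3 of 18 tested, with a median of -0.01, a share called near that of all genes (43.7%). LRP5, a lipoprotein receptor family member and Wnt co-receptor, rose by 0.78 (SE 0.055) and GRAMD1A, a sterol carrier at contacts with the plasma membrane, by 0.74 (SE 0.082), while HDLBP, an RNA-binding protein, fell by 0.28 on the log2 scale (SE 0.036). Of 11 tested fatty acid genes served by the related factor SREBP1, 4 fell and 1 rose, with a median of -0.07, and their share called was also near that of all genes. PNPLA3, a lipid droplet protein, fell by 0.94 (SE 0.081), FADS2 by 0.38 (SE 0.077) and FADS1 by 0.28 (SE 0.039) on the log2 scale, and SREBF1 fell by 0.34 (SE 0.112), whereas FASN (0.08, SE 0.036) and SCD (-0.01, SE 0.034) did not pass.

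**Figure D5:**
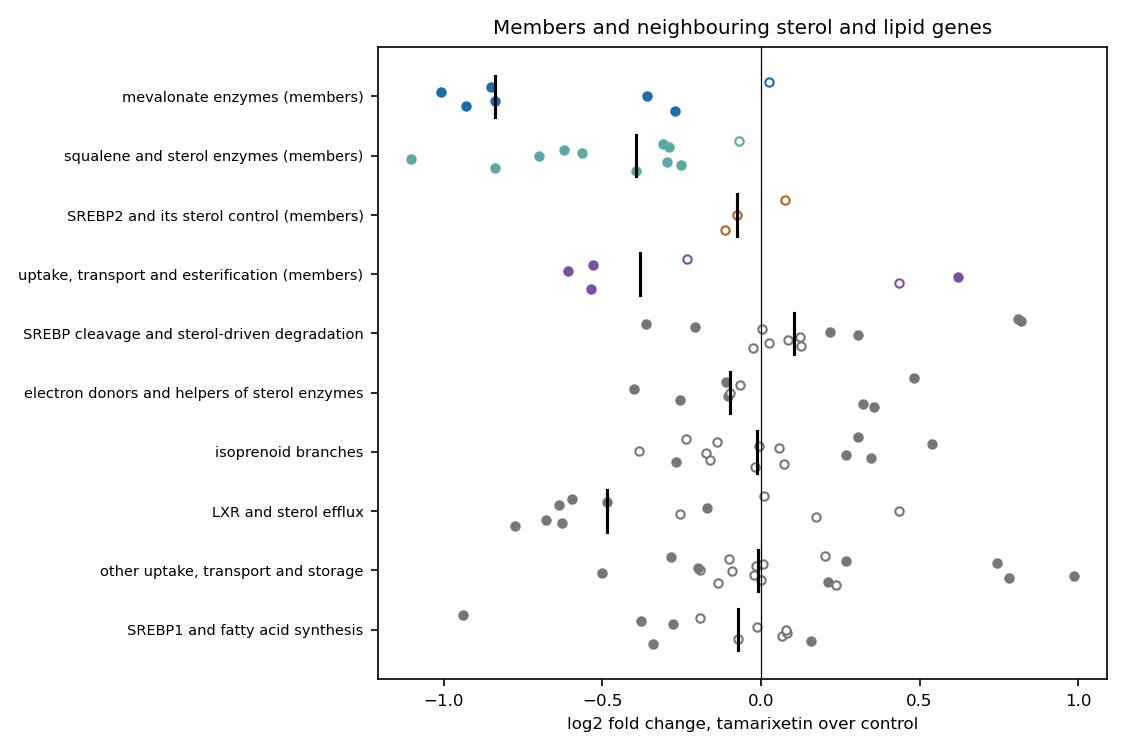
Log2 fold change (tamarixetin over control) of each tested gene in the member groups (coloured) and in neighbouring lists (grey), 1 point per gene, filled where it passed the test, with a black bar at the median of each list. The medians of the mevalonate enzymes (-0.84) and of the LXR and efflux list (-0.48) lie furthest left, and that of SREBP cleavage and degradation (0.10) lies right of 0.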

How the data were processed

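Per the labels' protocols, HepG2 RNA went into Lexogen QuantSeq 3′ forward libraries. The authors deposited raw counts per gene symbol, 1 table per library; fastp 0.23.1, STAR 2.7.10b, featureCounts 2.0.6 and GRCh38 are named in the submitters' processing notes. For the annotation release, the strand setting and molecular identifiers, the sources used here give nothing. In edgeR 4.0.16 (R 4.3.3), low genes were removed with filterByExpr, libraries scaled with TMM factors, and tamarixetin compared with control by the quasi-likelihood F test in a model of group alone; SE was taken as the size of the log2 fold change over the root of F. The test was checked on simulated data, with 50 genes changed at each fold. It recovered 58% of them at a fold of 1.25, 74% at 1.5, 88% at 2 and 94% at 3. There were 5 false calls, and small changes were thus often missed. The labels call the samples biological replicates, and libraries of one group differed by more than counting noise (chi-square per gene 2.36 to 3.54). The spread beyond counting noise was small, with a common coefficient of variation of 4.70% in edgeR. Neither value shows whether the replicates were separate cultures. Alternatives used DESeq2 1.42.0 and limma 3.58.1 among others. All 28 members are named, and of each neighbouring list the 3 genes with the smallest p, except 1 that is not reported here; MBTPS1, MBTPS2, NR1H2, NR1H3, FASN, SCD, SREBF1 and the overlapping genes were named after their values were seen. Members and lists were chosen with earlier results of these data known. The INSIG1 and INSIG2 proteins were not compared. Gene positions and promoters are RefSeq's.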

Additional observations from a re-analysis of the deposited data

How the results depend on the processing

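Of 27 members, 22 kept their direction and their side of the threshold in the 15 alternatives that refitted them; PMVK, LSS, MYLIP and SOAT1 crossed the threshold in the settings given with their values, and FDPS, which passed in none, had log2 fold changes of -0.0093 with upper quartile scaling and between -0.0051 and 0.061 when a library was left out. The count of members lower was 19, and 18 to 20 when each library was left out; the count of enzymes lower was 16, and 15 to 16; that of the other members lower was 3, and 3 to 4. Members higher numbered 2 in limma-voom and when libraries were scaled by size only, and 1 to 2 when a library was left out, the further gene being MYLIP. With a fold minimum of 1.2 the test called 2560 genes, among them 10 enzymes lower. Genes changed numbered 5155 to 5367 when a library was left out. Same-numbered libraries did not deviate together (correlations of 0.044, -0.013 and -0.016 over 5151 genes, and not every library correlated best with its own number); with the replicate block 19 members were lower, 1 higher and 5735 genes changed. The cause of these shifts was not tested. Leaving out mitochondrial transcripts, an alternative added after the data were seen, gave 19 members lower. PMVK, HSD17B7, NPC1L1, STARD4 and MYLIP averaged under 20 CPM in both groups and had an SE of at least 0.12 on the log2 scale, so small changes in them were not detectable at this depth.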
